A study of Homo sapiens with 12 samples.

Results

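The 9 genes described here are the receptors PPARA, PPARD and PPARG and 6 genes of lipid use that they are known to control, namely ANGPTL4, PLIN2, PDK4, CPT1A, ACADVL and CD36. They were chosen by name as a pathway out of 60671 genes in the table, and the pathway was selected on the measured values of ANGPTL4, which rose strongly in ΔLEO1 cells in low serum, so ANGPTL4 is not independent evidence there, and the rule had no threshold that a gene could just pass or miss. RNA was sequenced from BJ-5ta cells, human fibroblasts immortalized with hTERT, either wild type or with LEO1, a subunit of the PAF1 elongation complex, knocked out by CRISPR. The 4 groups of 3 libraries were WT_10 (wild type, 10% serum, libraries 1 to 3), Leo1_10 (ΔLEO1, 10% serum, libraries 4 to 6), WT_01 (wild type after 10 days in 0.1% serum, libraries 7 to 9) and Leo1_01 (ΔLEO1 after the same 10 days, libraries 10 to 12). The ΔLEO1 cells are 1 clone, so effects of the knockout and of that clone cannot be told apart, and no label says whether the libraries of a group came from separate cultures, so p-values measure the spread between libraries, which may be technical.

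PPAR receptors are nuclear receptors that bind fatty acids and their derivatives, pair with RXR receptors, and switch on genes for storing, taking up and burning fat. PPARA is best known for fatty acid oxidation in the fasting liver, PPARD for oxidation in many tissues, and PPARG for the making of fat cells. ANGPTL4 is secreted and blocks lipoprotein lipase, PLIN2 coats lipid droplets, and PDK4 inhibits pyruvate dehydrogenase and so spares glucose. CPT1A carries long-chain fatty acids into mitochondria, ACADVL starts their oxidation there, and CD36 takes them up at the cell surface.

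Gene counts ran from 26240632 to 45315560 per library, and LEO1 was at 20.4 to 30.4 CPM (counts scaled to the library's total of gene counts) in the 6 wild-type libraries against 0.661 to 1.44 in the 6 ΔLEO1 libraries. Synthetic ERCC transcripts were added to every sample, and fold changes are given relative to them unless CPM or TMM (scaling on the genes themselves) is named. On the ERCC scale the median of the 13236 genes tested was -0.97 (log2) for low serum in wild-type cells, -1.05 for low serum in ΔLEO1 cells, 0.35 for ΔLEO1 in 10% serum and 0.27 for ΔLEO1 in 0.1% serum, while on the TMM scale each was between 0.0039 and 0.020. Within each group the highest-numbered library stood apart: a chi-square per gene of 66.8 to 145 set it against the rest of its group, which differed among themselves by only 3.04 to 12.2. The 11 fibroblast markers summed to 69685 to 100427 CPM, with no separation of the groups. ADIPOQ and LEP, which define fat cells, were at 0 in every library, and the 6 adipocyte markers summed to 1.91 to 3.58 CPM in wild-type and 4.62 to 11.99 CPM in ΔLEO1 libraries. Of these, FABP4 alone was at 9.47 to 9.90 CPM in Leo1_10 and 2.24 to 4.69 CPM in Leo1_01, and at most 0.179 CPM in wild-type libraries. LIPE, the other adipocyte marker tested, was called lower in ΔLEO1 cells in 0.1% serum on the TMM scale only. Sums were 2.04 to 3.02 CPM in wild-type and 3.11 to 9.01 CPM in ΔLEO1 libraries for 5 macrophage markers, with AIF1 at 0 throughout and PTPRC higher in ΔLEO1 cells (4.30 ± 0.59, edgeR adjusted p = 8.22e-10, in 10% serum and 4.15 ± 0.58, adjusted p = 2.56e-09, in 0.1% serum), 0.309 to 0.987 CPM over all libraries for 4 endothelial markers, with CDH5 at 0 in 3 groups and KDR in both wild-type groups, and 0.209 to 0.434 against 0.575 to 1.51 CPM for 4 epithelial markers, with KRT5 at 0 in wild-type libraries. PTPRC passed the filter on low values (over 1 CPM in 3 or more libraries) only through the ΔLEO1 libraries, so its tests are not independent of that filter. The part of these markers in the results below was not tested, and fewer cells of a type cannot be told apart from less RNA per cell in bulk libraries.

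Per kilobase of exon, the most abundant of the 9 genes was ACADVL, at 28.96 ± 1.64 CPM per kilobase (SD, n = 3) in WT_10. It led in all 4 groups, between 28.3 and 33.8. PPARD came next in WT_10 at 16.0 ± 2.18, followed by PLIN2 at 9.89 ± 0.296, CPT1A at 8.32 ± 0.259 and PPARA at 3.74 ± 0.290. PPARG, at 1.06 ± 0.217, and ANGPTL4, at 0.583 ± 0.157, stood well below these, with CD36 at 0.244 ± 0.0258 and PDK4 last at 0.00955 ± 0.00641. No neighbours in the WT_10 order had overlapping libraries. In WT_01 the ranges of PPARD (14.4 to 22.6) and PLIN2 (12.7 to 14.8) overlapped, as did those of PLIN2 and ANGPTL4 (9.58 to 12.7), of ANGPTL4 and CPT1A (9.26 to 11.9), and of PPARG (1.34 to 1.52) and PDK4 (1.07 to 1.64). In Leo1_10 only PPARG (0.0389 to 0.0496) overlapped a neighbour, lying within the range of ANGPTL4 (0.0363 to 0.218), and in Leo1_01 PPARD, PLIN2 and CPT1A overlapped in turn, as did PDK4 and PPARG. ANGPTL4 held the seventh place in both 10% serum groups, the fourth in WT_01 and the fifth in Leo1_01. PPARG fell from the sixth place in WT_10 to the last in Leo1_01. With the longest transcript as the length, PPARD and PLIN2 changed places in WT_10.

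**Figure D1:**
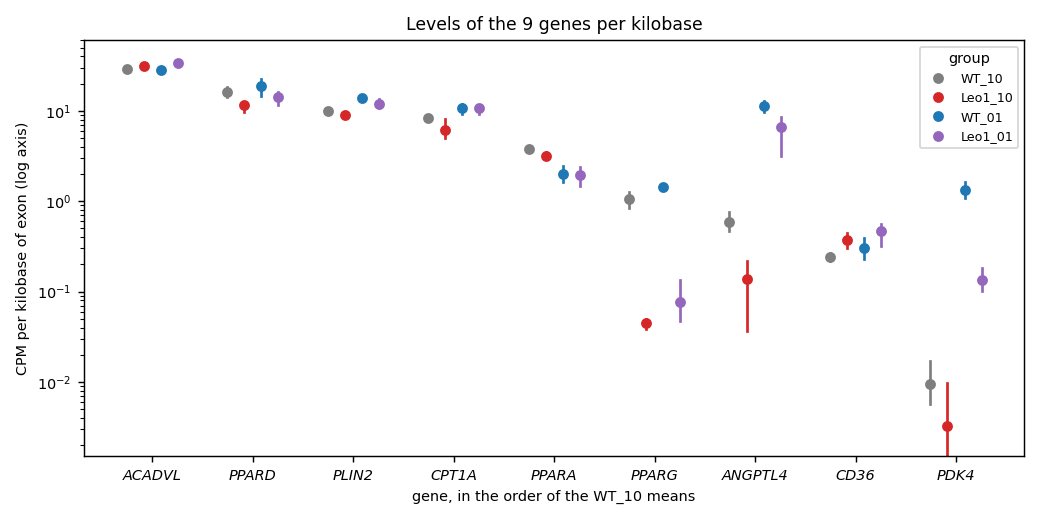
CPM per kilobase of exon (log axis) for the 9 genes in the order of the WT_10 means, with a point for the mean and a line from the lowest to the highest of 3 libraries in each group (the line of PDK4 in Leo1_10 starts at 0 and is cut at the bottom of the axis). ACADVL lies near 30 in every group, while ANGPTL4 and PDK4 move with serum and PPARG with genotype.

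In wild-type cells, low serum left most of these genes at or near the shift of the whole transcriptome, with ANGPTL4 and PDK4 far above it and PPARA below it. By edgeR's quasi-likelihood test with Benjamini-Hochberg adjustment over all 13236 genes, 2 of the 9 were higher and 1 was lower in WT_01 than in WT_10, against a background of 0.831% of tested genes called higher and 27.0% called lower. On the TMM scale 3 were higher and 1 lower, against 15.5% and 16.1% of tested genes. All 9 genes passed the filter on low values, but PDK4 passed it only through WT_01 and PPARG only through the wild-type libraries, so their counts carry no weight as a list. The rise that the selection named was in ΔLEO1 cells, and these libraries are wild type. Whether the selection also drew on Leo1_01 against WT_01 is not stated, and the WT_01 libraries enter that comparison. Without the highest-numbered library of each group 1 was higher and 3 were lower, against 0.999% and 63.4% of tested genes. PDK4, called higher with all libraries, then failed the filter.

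ANGPTL4 stood at 1.89, 1.28 and 1.17 CPM in the WT_10 libraries and at 31.5, 28.7 and 23.8 CPM in the WT_01 libraries. The groups did not overlap, and every low-serum library lay above 20 CPM. On the log2 scale the rise was 3.19 ± 0.53 (SE throughout; adjusted p = 1.42e-06) relative to the ERCC transcripts and 4.19 ± 0.41 (adjusted p = 6.50e-05) on the TMM scale.

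PDK4 had 1, 3 and 1 counts in the WT_10 libraries and 199, 127 and 248 counts in the WT_01 libraries, which is 0.0274, 0.0766 and 0.0255 CPM against 5.91, 4.84 and 7.40 CPM. Few reads of this kinase were present in 10% serum, and every low-serum library had more than 100. The summed counts, 574 against 5, gave a ratio of 68.6 on the ERCC scale with an exact 95% counting interval of 29.2 to 212, and a ratio of 141 in CPM with an interval of 60.2 to 437. The intervals cover counting error only. The edgeR test gave an adjusted p of 6.36e-12, and its fitted fold depends on the prior count and is not quoted. PDK4 passed the filter on low values through the 3 WT_01 libraries alone, and with no filter its adjusted p was 4.39e-12.

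PPARA moved the other way. It was at 48.3, 46.2 and 53.6 CPM in WT_10 and at 25.6, 21.5 and 32.6 CPM in WT_01, with no overlap. Its log2 fold change was -1.98 ± 0.48 (adjusted p = 0.00142), which is 1.01 below the median of all genes, and -0.98 ± 0.17 (adjusted p = 0.00178) on the TMM scale.

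The remaining 6 genes were not called on the ERCC scale, with log2 fold changes from -1.10 ± 0.47 (ACADVL, adjusted p = 0.0606) to -0.56 ± 0.48 (PLIN2, adjusted p = 0.294) around the median of -0.97. ACADVL was at 132 to 148 CPM in WT_10 and 136 to 139 CPM in WT_01, and the groups overlapped in CPM but not on the ERCC scale. PLIN2 was at 49.6, 49.3 and 52.0 CPM in WT_10 and at 75.3, 70.6 and 64.5 CPM in WT_01, without overlap in CPM, and it was called higher on the TMM scale (0.39 ± 0.11, adjusted p = 0.0201) while its ERCC-scale value was negative. CPT1A was at 52.7 to 55.7 CPM in WT_10 and 60.8 to 77.8 CPM in WT_01, PPARD at 64.0 to 82.4 and 64.3 to 101, PPARG at 3.83 to 5.79 and 6.10 to 6.90, and CD36 at 2.37 to 2.93 and 2.47 to 4.24. The sign of PLIN2, CPT1A, PPARD, PPARG and CD36 turned between the ERCC and TMM scales, so no direction is given for them.

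**Figure D2:**
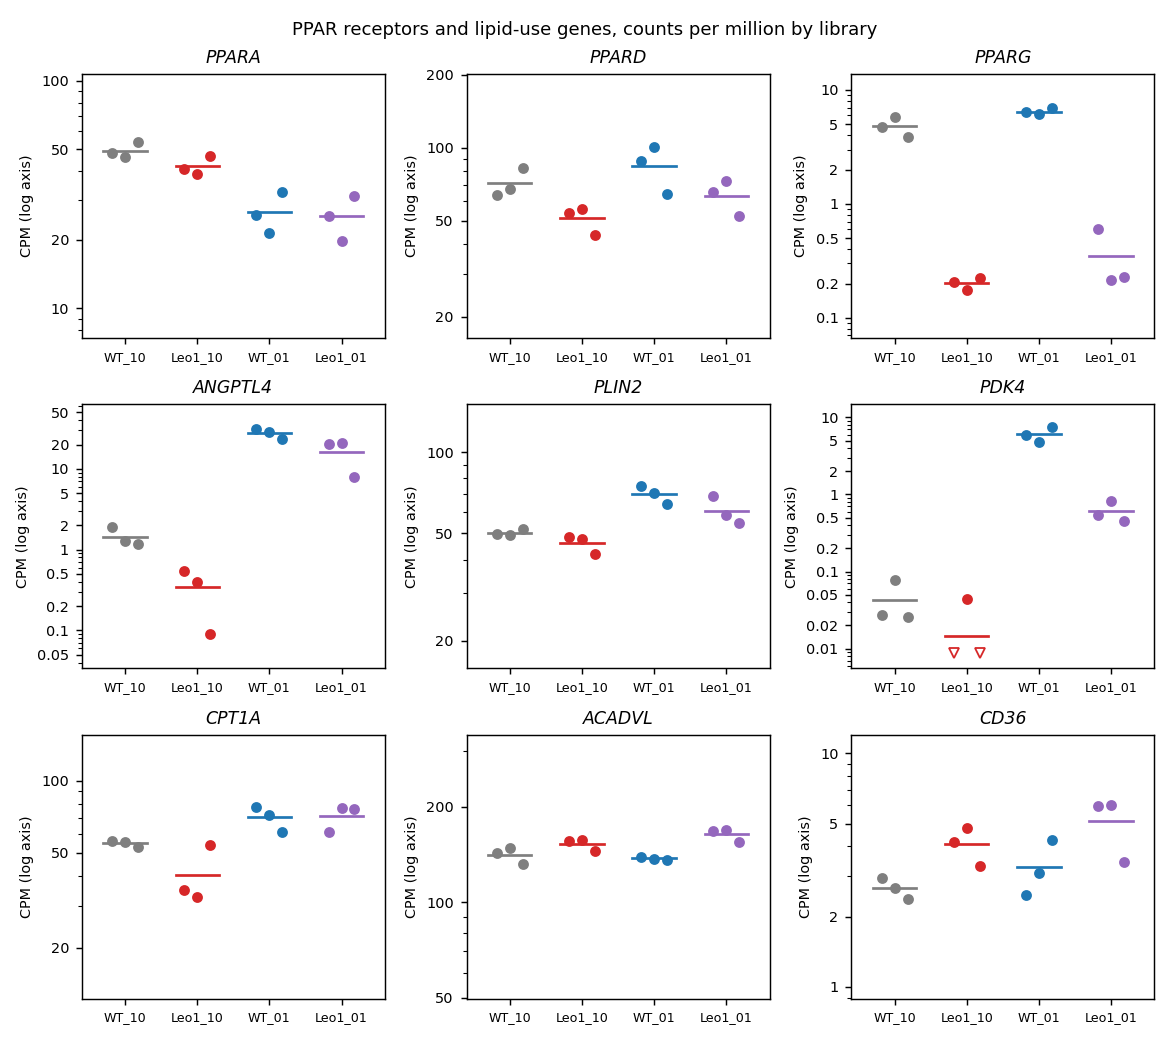
CPM of each of the 9 genes (log axis, each panel with its own range) in 12 libraries, with 3 points a group in the order of library number, a bar for the mean and an open triangle for a library with 0 counts. ANGPTL4 and PDK4 are higher in both low-serum groups, PPARA is lower in both, and PPARG is below 1 CPM in all 6 ΔLEO1 libraries.

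Of the 9 genes, ANGPTL4 (chr19:8363289-8374373, plus strand, GRCh38), PDK4 (chr7:95583499-95596491, minus strand) and PPARG (chr3:12287368-12434356, plus strand), all protein-coding, moved most, and their starts are shown as the 250 bases before the transcription start, 5′ to 3′ on the coding strand (RefSeq, GRCh38.p14; all 9 genes matched). Capitals mark the motifs searched on both strands. ANGPTL4 (chr19:8363905-8364154, plus strand) and PDK4 (chr7:95596517-95596766, minus strand) each have 1 listed start, and the PPARG window (chr3:12287118-12287367, plus strand) is the first along the chromosome of 6. The gene spans are from GENCODE and the starts from RefSeq, and the 2 can differ. The ANGPTL4 window lies inside the GENCODE span of that gene.
ANGPTL4: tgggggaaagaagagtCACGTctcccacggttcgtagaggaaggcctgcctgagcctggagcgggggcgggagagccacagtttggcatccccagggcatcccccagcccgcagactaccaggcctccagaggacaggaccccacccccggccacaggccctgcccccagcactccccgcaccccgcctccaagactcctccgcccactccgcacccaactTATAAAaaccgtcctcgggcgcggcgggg
PDK4: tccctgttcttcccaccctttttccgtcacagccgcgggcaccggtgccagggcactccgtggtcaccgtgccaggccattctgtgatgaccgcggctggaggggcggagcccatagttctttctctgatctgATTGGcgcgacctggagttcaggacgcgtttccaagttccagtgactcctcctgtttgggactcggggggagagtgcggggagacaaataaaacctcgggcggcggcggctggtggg
PPARG: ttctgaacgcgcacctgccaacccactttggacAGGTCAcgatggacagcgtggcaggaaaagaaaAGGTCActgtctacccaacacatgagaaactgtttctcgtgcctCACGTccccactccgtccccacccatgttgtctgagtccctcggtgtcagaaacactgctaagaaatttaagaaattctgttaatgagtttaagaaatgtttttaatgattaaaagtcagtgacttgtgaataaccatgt
The full PPAR response element, which is 2 copies of AGGTCA on the same strand with 1 base between them, stood in none of the 21 windows of the 9 genes and in 0.0171% of all 35116 windows. Its half-site AGGTCA, which any full element also contains, stood in 12.1% of all windows and in 3 of the 21, all of them windows of PPARG. Both copies in the stretch shown lie at 217 to 212 and 184 to 179 bases before the start. TATAAA, the TATA box, is in the ANGPTL4 stretch 29 to 24 bases before the start. It stood in 7 of the 21 windows, from 5 of the 9 genes, and in 10.7% of all windows. ACGTG, the core bound by hypoxia-inducible factors, is in the ANGPTL4 and PPARG stretches (as CACGT, its other strand). It stood in 4 of the 21 windows, from 4 of the 9 genes, and in 18.5% of all windows. CCAAT is in the PDK4 stretch as ATTGG, 117 to 113 bases before the start. It stood in 5 of the 21 windows, from 5 of the 9 genes, and in 32.0% of all windows. A match is a description of the sequence, and the windows are short beside the distances over which such factors act.

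In 10% serum, the ΔLEO1 cells held far less PPARG RNA than wild-type cells did. By the same edgeR test 0 of the 9 genes were higher and 2 were lower in Leo1_10 than in WT_10, against 3.81% of tested genes called higher and 4.20% called lower. At an unadjusted p under 0.05 the number higher was also 0, as it was by the likelihood ratio test and by DESeq2. On the TMM scale 0 were higher and 3 lower, against 17.9% and 21.4%.

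PPARG was at 4.77, 5.79 and 3.83 CPM in WT_10 and at 0.206, 0.177 and 0.225 CPM, or 8, 8 and 10 counts, in Leo1_10. Each wild-type library was above each ΔLEO1 library by more than 10 times. The log2 fold change was -4.27 ± 0.61 (adjusted p = 2.23e-09) on the ERCC scale and -4.55 ± 0.37 (adjusted p = 1.71e-06) on the TMM scale. PPARG passed the filter through the 6 wild-type libraries alone, and with no filter its adjusted p was 2.91e-09.

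ANGPTL4 was at 0.541, 0.397 and 0.0900 CPM in Leo1_10, below all 3 WT_10 libraries in CPM, though not on the ERCC scale, where library 4 lay above library 3. On the log2 scale the difference was -1.72 ± 0.57 (adjusted p = 0.0386) relative to the ERCC transcripts and -2.10 ± 0.56 (adjusted p = 0.00911) on the TMM scale. The Leo1_10 libraries are also the baseline of the contrast that led to the choice of ANGPTL4, so this test is not independent of that choice. Library 6, with 4 counts, was the lowest of the 3, and without it the adjusted p was 0.423, without libraries 1, 2, 5, 7, 8 and 10 it was 0.340, 0.100, 0.195, 0.0704, 0.0527 and 0.06001, and with no filter on low values it was 0.0564.

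The other 7 genes were not called on the ERCC scale. CD36 was at 2.93, 2.65 and 2.37 CPM in WT_10 and at 4.18, 4.79 and 3.31 CPM in Leo1_10, separate in CPM and overlapping on the ERCC scale, with a log2 fold change of 0.95 ± 0.53 (adjusted p = 0.405). PPARD was at 64.0 to 82.4 CPM in WT_10 and 43.6 to 55.9 CPM in Leo1_10, again separate in CPM, with -0.09 ± 0.48 (adjusted p = 0.926) on the ERCC scale and a call on the TMM scale (-0.49 ± 0.18, adjusted p = 0.0489). PPARA overlapped between the groups (46.2 to 53.6 against 38.8 to 46.7 CPM), as did CPT1A (52.7 to 55.7 against 32.6 to 53.7 CPM), where library 6 was at the wild-type level and libraries 4 and 5 were below 35 CPM. PLIN2 (49.3 to 52.0 against 42.1 to 48.4 CPM) was separate in CPM and overlapped on the ERCC scale, and ACADVL (132 to 148 against 145 to 157 CPM) overlapped on both. PDK4, with 1, 3 and 1 counts against 0, 2 and 0, could not be compared at this depth, its ratio in CPM being 0.357 with an interval of 0.034 to 2.18.

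Low serum in ΔLEO1 cells is the contrast on which ANGPTL4 was selected, so for all 9 genes the values are given without a test, here and in the comparison of the 2 genotypes in 0.1% serum.

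ANGPTL4 was at 20.1, 21.0 and 7.93 CPM in Leo1_01, above every Leo1_10 library and below every WT_01 library in CPM. The log2 fold change from Leo1_10 was 4.14 ± 0.56, against 3.19 ± 0.53 for low serum in wild-type cells, and the difference between the 2 responses was 0.96 ± 0.77 (SE). ANGPTL4 thus started from a lower CPM in ΔLEO1 cells and ended at a lower one, and the log2 fold change of Leo1_01 against WT_01 was -0.77 ± 0.51 on the ERCC scale, where the libraries overlapped. Library 12 was the lowest in CPM, while on the ERCC scale it fell between libraries 10 and 11.

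PDK4 was higher in low serum in ΔLEO1 cells too, but below the wild-type level. It had 19, 27 and 16 counts in Leo1_01, or 0.546, 0.830 and 0.453 CPM, against 4.84 to 7.40 CPM in WT_01, with no overlap. The log2 fold change of Leo1_01 against WT_01 was -3.17 ± 0.57, and 62 counts against 2 in Leo1_10 gave a ratio of 15.3 on the ERCC scale with a counting interval of 4.07 to 129.

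PPARG stayed low in ΔLEO1 cells, at 0.604, 0.215 and 0.227 CPM in Leo1_01 against 6.10 to 6.90 CPM in WT_01, a log2 fold change of -4.00 ± 0.59. PPARA was lower in low serum in ΔLEO1 cells too, at 25.4, 19.7 and 31.3 CPM against 41.1, 38.8 and 46.7 CPM in Leo1_10 (-1.75 ± 0.48), and the Leo1_01 and WT_01 libraries overlapped. In these values PPARA was lower and ANGPTL4 higher in low serum in both genotypes, and PPARG was lower in ΔLEO1 cells in both media.

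PLIN2 was at 68.9, 58.5 and 54.7 CPM in Leo1_01 against 42.1 to 48.4 CPM in Leo1_10, and CPT1A at 60.8 to 76.8 against 32.6 to 53.7 CPM, both separate in CPM and overlapping on the ERCC scale. ACADVL was at 155 to 169 CPM in Leo1_01, above all 3 WT_01 libraries in CPM but not on the ERCC scale. PPARD (52.2 to 72.6 CPM) and CD36 (3.43 to 6.03 CPM) overlapped in CPM with both Leo1_10 and WT_01. Without the highest-numbered library of each group the all-gene median for Leo1_01 against WT_01 moved from 0.27 to -0.42.

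**Figure D3:**
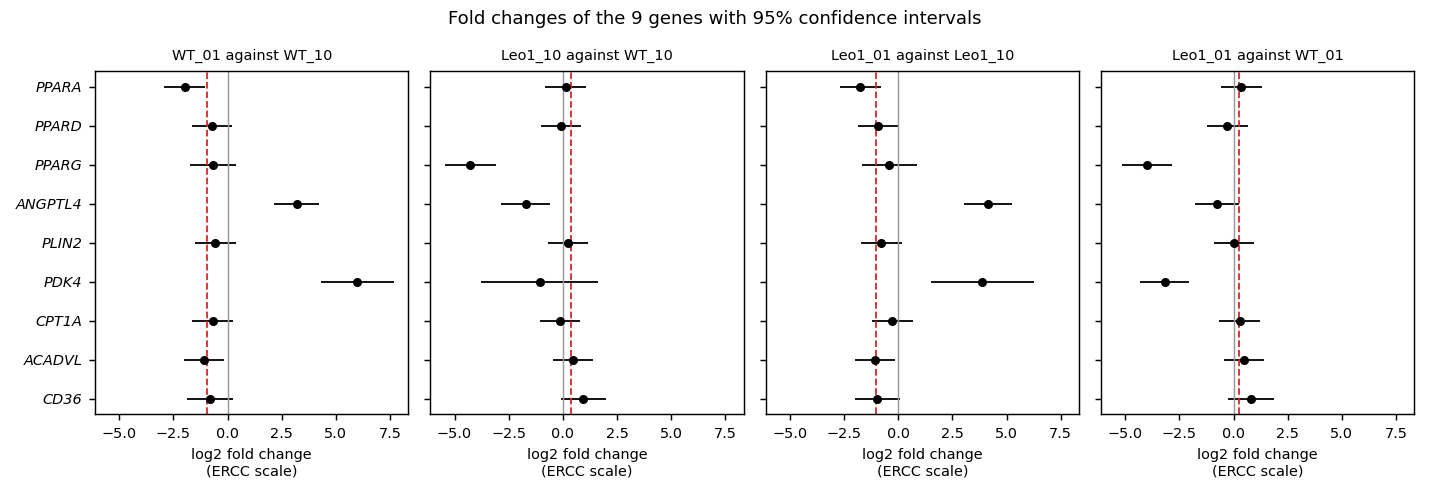
Log2 fold changes of the 9 genes on the ERCC scale (points) with 95% confidence intervals (bars) in 4 comparisons, with zero as a grey line and the median of all tested genes as a dashed red line. The points of ANGPTL4 and PDK4 lie right of both lines for low serum in both genotypes, and PPARG lies near -4 in both comparisons of ΔLEO1 with wild type. In the comparisons that involve Leo1_01 the bars describe the spread between libraries and are not a test, since ANGPTL4 was selected on those libraries.

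The wider lists of lipid genes were tested in all 4 comparisons. On the ERCC scale 27.0% of all tested genes were lower and 0.831% higher for low serum in wild-type cells, and 36.4% and 0.793% in ΔLEO1 cells. For ΔLEO1 against wild type 3.81% were higher and 4.20% lower in 10% serum, and 3.49% and 3.41% in 0.1% serum. Without the highest-numbered library of each group the shares higher and lower were 0.999% and 63.4% for low serum in wild-type cells, 0.658% and 92.0% for low serum in ΔLEO1 cells, 4.90% and 5.86% for ΔLEO1 in 10% serum, and 2.26% and 11.8% for ΔLEO1 in 0.1% serum. Of 14 receptor partners and coregulators, 11 passed the filter, and 0 were called in either comparison of genotypes on the ERCC scale (0 at an unadjusted p under 0.05, by the likelihood ratio test and by DESeq2, and 4 in 10% serum and 2 in 0.1% serum on the TMM scale, and 1 lower in 0.1% serum without the highest-numbered libraries). All-gene shares on the TMM scale were 17.9% higher and 21.4% lower in 10% serum, and 15.1% and 17.3% in 0.1% serum. In low serum 1 of the 11 was lower in each genotype, NRIP1, and without the highest-numbered libraries 3 and 9 were, against 63.4% and 92.0% of all genes. NRIP1, a corepressor of nuclear receptors, fell in low serum in wild-type cells (-1.43 ± 0.48, adjusted p = 0.0221) and in ΔLEO1 cells (-1.32 ± 0.48, adjusted p = 0.0317). On the TMM scale NRIP1 was called lower in wild-type cells only. RXRG was at 0 in 11 libraries and had 1 count in the other.

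Of 19 tested genes of mitochondrial fatty acid oxidation, 6 fell and 0 rose in wild-type cells, beside 27.0% of all genes lower, with a list median of -1.06 beside -0.97, and 10 fell and 0 rose in ΔLEO1 cells, beside 36.4% of all genes lower, with -1.18 beside -1.05. At an unadjusted p under 0.05 and by the likelihood ratio test and DESeq2 the number higher was also 0 in both. By TMM scaling 1 was higher and 4 lower in wild-type cells and 2 were higher and 3 lower in ΔLEO1 cells, beside 15.5% higher and 16.1% lower, and 15.5% and 12.1%, of all genes. UCP2, a mitochondrial carrier, fell most (-2.70 ± 0.51, adjusted p = 2.41e-05, in wild-type cells and -2.31 ± 0.50, adjusted p = 0.000513, in ΔLEO1 cells), followed by ACADM, the medium-chain counterpart of ACADVL (-1.68 ± 0.48, adjusted p = 0.00793, and -1.48 ± 0.48, adjusted p = 0.0212). CPT2, which works after CPT1A, was at -1.44 ± 0.50 (adjusted p = 0.0284) and -1.39 ± 0.50 (adjusted p = 0.0322), and ECHS1, an enzyme of the oxidation cycle, at -1.34 ± 0.48 (adjusted p = 0.0304) and -1.39 ± 0.48 (adjusted p = 0.0261). On the TMM scale CPT2 was called in neither genotype and ECHS1 in wild-type cells only. Without the highest-numbered libraries 15 and 18 of the 19 were lower, beside 63.4% and 92.0% of all genes. Of 14 tested peroxisomal genes, 5 fell and 0 rose in each genotype, beside 27.0% and 36.4% of all genes lower, with medians of -1.05 and -0.95. At an unadjusted p under 0.05 or by the likelihood ratio test or DESeq2, 0 were higher. On the TMM scale 2 and 2 were higher, beside 15.5% of all genes in each, and 2 and 0 lower, beside 16.1% and 12.1%. Without the highest-numbered libraries 11 and 13 were lower, beside 63.4% and 92.0%.

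Among genes of fatty acid uptake and binding, FABP4, VLDLR and LMF1 differed between genotypes. In 10% serum 1 of 13 tested genes was higher and 2 were lower in ΔLEO1 cells, beside 3.81% and 4.20% of all genes. In 0.1% serum 1 was higher and 1 lower, beside 3.49% and 3.41%. With TMM scaling 5 were higher and 3 lower in 10% serum, beside 17.9% and 21.4% of all genes, and 6 and 2 in 0.1% serum, beside 15.1% and 17.3%. FABP4, a fatty acid carrier of fat cells and a known PPARG target, was at 9.47 to 9.90 CPM in Leo1_10 and 0.102 to 0.179 CPM in WT_10. Its log2 fold change was 6.41 ± 0.64 (edgeR adjusted p = 1.93e-17). FABP4 was over 1 CPM in the ΔLEO1 libraries alone and passed the filter only through them. Its tests between genotypes are therefore not independent of the filter. In 0.1% serum FABP4 had 387 summed counts in Leo1_01 and 1 in WT_01, a ratio of 372 on the ERCC scale with a counting interval of 66.4 to 14728 (edgeR adjusted p = 1.67e-16). FABP4 also fell with serum, from 17 summed counts in WT_10, a ratio of 0.0352 with an interval of 0.000841 to 0.224, and by 2.66 log2 units in ΔLEO1 cells (adjusted p = 0.000109).

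VLDLR, a receptor for triglyceride-rich lipoproteins, was lower in ΔLEO1 cells, with 27.7 to 34.8 CPM in WT_10 and 1.19 to 1.37 CPM in Leo1_10 (-4.29 ± 0.51, adjusted p = 1.04e-11) and -3.17 ± 0.51 (adjusted p = 4.81e-07) in 0.1% serum. LMF1, which matures lipoprotein lipase, the enzyme that ANGPTL4 blocks, was at 19.6 to 21.1 CPM in WT_10 and 3.83 to 3.97 CPM in Leo1_10 (-2.07 ± 0.51, adjusted p = 0.00173), and in 0.1% serum it was at -1.20 ± 0.50 (adjusted p = 0.192). Lipoprotein lipase itself, LPL, was at 0 counts in all 12 libraries. The counting strand is not stated, and VLDLR shares exon positions with an antisense gene.

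CEBPA, the transcription factor that acts with PPARG in making fat cells, was the 1 of 6 tested genes of the adipocyte programme that was lower in ΔLEO1 cells, at 4 counts in each Leo1_10 library against 34 to 52 in WT_10 (-3.29 ± 0.70, adjusted p = 5.69e-05) and -3.25 ± 0.57 (adjusted p = 3.87e-06) in 0.1% serum. It was also the only one of the 6 called higher in low serum in wild-type cells (1.47 ± 0.55, adjusted p = 0.0377), from 0.932 to 1.33 CPM up to 5.67 to 9.35 CPM. CEBPD and ADIPOR1 were called lower there. CEBPA was over 1 CPM in wild-type libraries alone and passed the filter only through them, so its tests between genotypes are not independent of the filter. WT_10 library 1 was at 0.932 CPM, so without the WT_01 libraries CEBPA would not have passed. Its test for low serum in wild-type cells is therefore not independent of the filter either. With TMM scaling 2 of the 6 were higher and 3 lower in ΔLEO1 cells in 10% serum, beside 17.9% and 21.4% of all genes. In 0.1% serum 2 and 2 were, beside 15.1% and 17.3%. On the ERCC scale 4.20% of all genes were lower in ΔLEO1 cells in 10% serum and 3.41% in 0.1% serum. For low serum in wild-type cells 0.831% were higher and 27.0% lower on that scale.

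PDK3, a second kinase of pyruvate dehydrogenase, was higher in ΔLEO1 cells. PDK3 was at 1.68 to 2.71 CPM in WT_10, 8.89 to 11.3 CPM in Leo1_10, 1.14 to 1.28 CPM in WT_01 and 9.53 to 11.4 CPM in Leo1_01. The log2 fold changes of ΔLEO1 against wild type were 2.52 ± 0.52 (adjusted p = 0.000138) in 10% serum and 3.42 ± 0.53 (adjusted p = 1.96e-07) in 0.1% serum. In low serum 4 of the 5 kinases and phosphatases of this enzyme other than PDK4, which rose, were lower in wild-type cells, led by PDK1 (-2.57 ± 0.48, adjusted p = 2.18e-05) and PDK3 (-1.95 ± 0.54, adjusted p = 0.00580), and 3 of 5 were lower in ΔLEO1 cells, beside 27.0% and 36.4% of all genes. The TMM scale gave 2 of 5 lower in each, beside 16.1% and 12.1% of all genes.

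**Figure D4:**
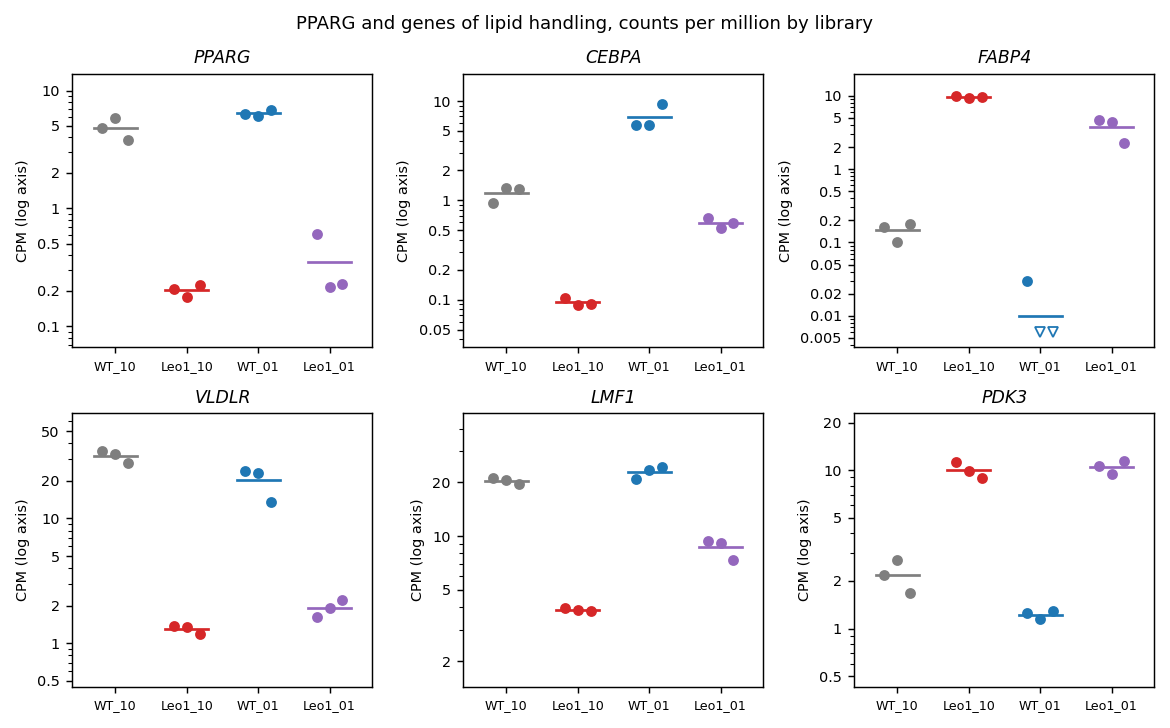
CPM (log axis, each panel with its own range) of PPARG and 5 genes of lipid handling in 12 libraries, with 3 points a group in the order of library number, a bar for the mean and an open triangle for a library with 0 counts. PPARG, CEBPA, VLDLR and LMF1 are lower, and FABP4 and PDK3 higher, in ΔLEO1 than in wild-type libraries in CPM at each serum level.

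Among genes of lipid droplets and lipolysis, the neighbours of PLIN2 in function, 4 of 10 tested fell and 0 rose in low serum in each genotype, beside 27.0% and 36.4% of all genes lower (0 higher at an unadjusted p under 0.05, by the likelihood ratio test and by DESeq2, and 1 and 0 on the TMM scale). The TMM scale gave 3 lower in wild-type and 0 in ΔLEO1 cells, beside 16.1% and 12.1% of all genes. On that scale 15.5% of all genes were higher in each genotype. Without the highest-numbered libraries 9 and 10 were lower, beside 63.4% and 92.0% of all genes. The called genes were led by PNPLA2, the first lipase of droplet fat, in wild-type cells (-1.53 ± 0.47, adjusted p = 0.0130) and by HILPDA, a droplet protein, in ΔLEO1 cells (-1.50 ± 0.51, adjusted p = 0.0261). Of the angiopoietins and angiopoietin-like genes, the family of ANGPTL4, only 2 of 9 genes passed the filter. ANGPT1, a vessel growth factor, fell in wild-type (-2.19 ± 0.48, adjusted p = 0.000322) and in ΔLEO1 cells (-1.66 ± 0.47, adjusted p = 0.00972). ANGPTL2 was at 170 to 260 CPM in WT_10 and 382 to 428 CPM in WT_01, and was called higher in low serum on the TMM scale only.

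**Figure D5:**
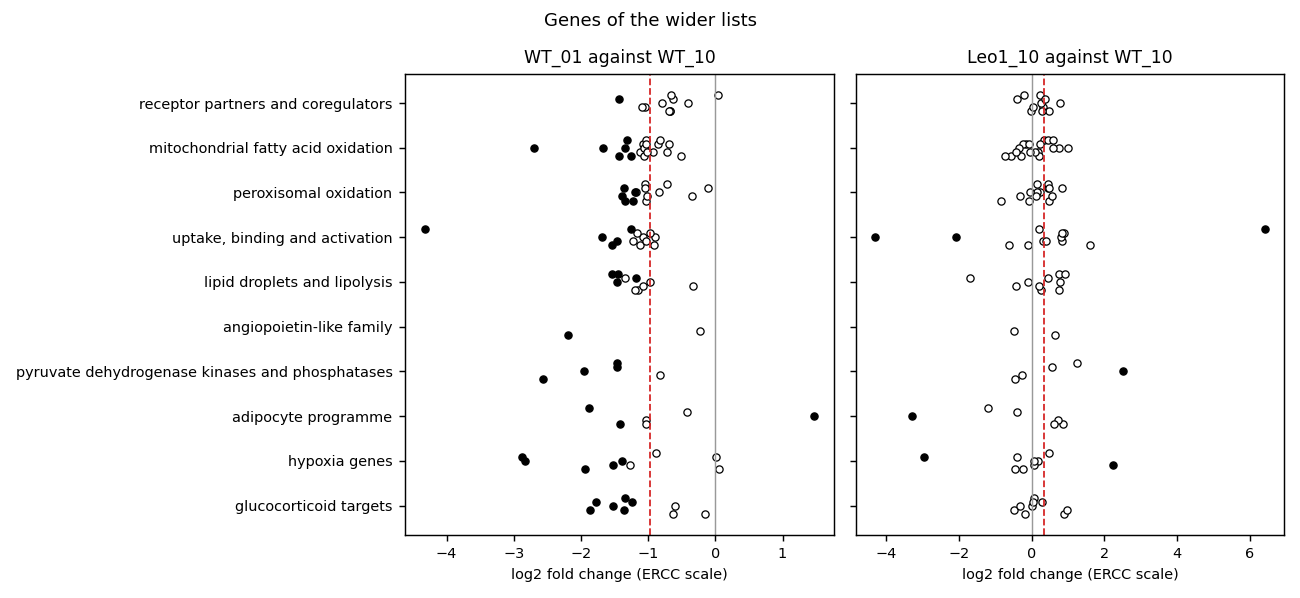
Log2 fold changes on the ERCC scale of the tested genes in 10 lists (1 point a gene, filled where the adjusted p is under 0.05) for low serum in wild-type cells and for ΔLEO1 in 10% serum, with zero as a grey line and the median of all genes as a dashed red line. On the left, filled points lie left of the median line apart from CEBPA, and on the right the farthest points are FABP4, VLDLR, CEBPA, CA9 and PDK3.

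Across the 12 libraries, the 5 genes whose log2 CPM followed that of ANGPTL4 most closely were EEIG1, ENSG00000250041 (no symbol), OS9, TSKU and GABPB1-IT1, with Pearson's r of 0.981 to 0.987. TSKU, a secreted protein, was at 37.4 to 39.3 CPM in WT_10, 13.8 to 23.8 in Leo1_10, 126 to 170 in WT_01 and 68.9 to 94.2 in Leo1_01, the same order of groups as ANGPTL4. On the ERCC scale the 5 closest genes were OGN, IL17RD, SULF2, SERPINF1 and TLE3 (r of 0.917 to 0.950), none of them among the first 5, and OS9 was then at -0.45. Within the 9 genes, the r with ANGPTL4 on log2 CPM was 0.937 for PLIN2, 0.910 for PDK4 and -0.82 for PPARA, and on the ERCC scale 0.860 for PDK4, -0.44 for PLIN2 and -0.76 for PPARA. These values describe 12 libraries that fall into 4 groups and share their depth and scaling.

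Reads of ANGPTL4 and ACADVL could be shared with genes on the other strand, RAB11B-AS1 and DLG4, since the strand setting of the counting is not stated. RAB11B-AS1 was at 2.17 to 2.52 CPM in WT_10, 3.24 to 4.57 CPM in WT_01, 1.24 to 1.35 CPM in Leo1_10 and 1.81 to 2.35 CPM in Leo1_01. Of all stretches of 58 bases, the read length, in the transcripts of PPARG, ANGPTL4, PDK4 and ACADVL, 0% also occurred in a transcript of another gene, and at most 1.85% did for the other 5 (CPT1A).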

How the data were processed

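Poly(A) RNA of 12 samples (4 groups of 3) was made into stranded libraries with ERCC transcripts added and sequenced as 58-base read pairs. The authors aligned reads to GRCh38 with STAR (2.7.10a in the submitters' processing notes, another release in the methods) and deposited raw counts per gene and ERCC transcript made with featureCounts 1.5.1. The annotation release and strand setting are not given in the sources used here.

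Groups were taken from the sample labels. Counts were fitted with edgeR 4.0.16 (quasi-likelihood test, 1 fit of 12 libraries and 4 groups, R 4.3.3), with the ERCC total times its TMM factor as library size, for genes over 1 CPM in 3 or more libraries (13236 of 60671), at a Benjamini-Hochberg adjusted p of 0.05 over all tested genes. The methods name edgeR and ERCC scaling but no test. DESeq2 1.42.0, other scalings and filters, and leaving out libraries were alternatives. Counting intervals are exact (95%) and cover counting error only. Depth was 26240632 to 45315560 gene counts. The scripts were tested on simulated data.

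The members and lists were chosen with earlier results of these data known. Named genes were LEO1, the 9 members, the 5 genes most like ANGPTL4 by Pearson's r of log2 CPM (prior count 2), up to 3 called genes of each list and comparison by absolute log2 fold change, and markers at or near 0. Others (the antisense partners, genes at 0, and ANGPTL2) were named after their values were seen. The 9 genes were not tested in comparisons that involve Leo1_01. Gene positions are from GENCODE 29 and promoter sequences from RefSeq.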

Additional observations from a re-analysis of the deposited data

How the results depend on the processing

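No paired analysis was possible because the groups share no replicate number. Counts of genes depended on the scaling. On the TMM scale 2047 genes were higher and 2127 lower for low serum in wild-type cells, 2371 and 2834 for ΔLEO1 in 10% serum, 2055 and 1604 for low serum in ΔLEO1 cells, and 2004 and 2289 for ΔLEO1 in 0.1% serum. With size factors that DESeq2 computed from the genes these were 2066 and 2099, 2453 and 2763, 2050 and 1592, and 2041 and 2245. With DESeq2 on ERCC factors 5755 genes were lower for wild-type serum. With no filter 932 were higher for ΔLEO1 in 10% serum, 2530 lower for serum in ΔLEO1 cells and 733 higher for ΔLEO1 in 0.1% serum, and with edgeR's filterByExpr 783 and 714 were higher in the genotype comparisons. With only the groups compared, 7663 were lower for wild-type serum, 799 higher for ΔLEO1 in 10% serum, 37 and 523 called for serum in ΔLEO1 cells, and 230 and 293 for ΔLEO1 in 0.1% serum. Without the highest-numbered libraries 8186 and 11873 were lower for serum in wild-type and ΔLEO1 cells, and 292 and 1522 called for ΔLEO1 in 0.1% serum. With those libraries as a covariate 2082 were lower for serum in ΔLEO1 cells. With the lowest-numbered pair of each group summed, chosen after seeing the data, the counts were 28 and 295, 163 and 251, 27 and 77, and 197 and 154. The cause was not tested.

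Of the 9 genes, 2 were lower for wild-type serum by the likelihood ratio test, by DESeq2 and with only the groups compared. Without the highest-numbered libraries 3 were lower and 1 was higher, against 63.4% and 0.999% of tested genes. With summed libraries 0 were lower and 1 was higher, and PPARA had an edgeR adjusted p of 0.153. For ΔLEO1 in 10% serum 1 was lower with no filter and with summed libraries. On the TMM scale and with DESeq2's gene factors, wild-type serum gave 0.15 and 0.16 for PPARD, 0.34 and 0.35 for PPARG, 0.39 and 0.40 for PLIN2, 0.27 and 0.28 for CPT1A and 0.22 and 0.22 for CD36, and ΔLEO1 in 10% serum gave -0.23 and -0.22 for PPARA and -0.14 and -0.12 for PLIN2, all opposite in sign to the ERCC scale. CPT1A for ΔLEO1 in 10% serum was at 0.034 with summed libraries. Of the 5 genes most like ANGPTL4, 0 were shared between scales.

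Leaving out each library in turn gave 51 to 182 genes higher and 743 to 8102 lower for wild-type serum, 294 to 940 and 374 to 781 for ΔLEO1 in 10% serum, 51 to 119 and 406 to 11529 for serum in ΔLEO1 cells, and 268 to 1117 and 281 to 955 for ΔLEO1 in 0.1% serum. The extremes of the wild-type serum count of lower genes came without libraries 7 and 12, and those of the ΔLEO1 serum count without libraries 10 and 12. Of the 9 genes, 1 to 2 were higher and 1 to 2 lower for wild-type serum, and 1 to 2 lower for ΔLEO1 in 10% serum. PDK4 failed the filter without any 1 of the WT_01 libraries. For ΔLEO1 in 10% serum PPARA ran from -0.042 to 0.33, PPARD from -0.31 to 0.12 and CPT1A from -0.36 to 0.095. The calls of PPARG in 10% serum and of ANGPTL4 in wild-type low serum held in all 23 alternatives, with adjusted p of 2.66e-15 to 0.000273 and 3.48e-11 to 0.00657.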

Other observations

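ANGPTL4 and PDK4 are also known targets of hypoxia-inducible factors and of the glucocorticoid receptor, and lists of such genes were read beside them. Of 9 tested hypoxia genes, 0 rose and 5 fell in low serum in each genotype by edgeR on the ERCC scale, with medians of -1.38 in wild-type and -1.59 in ΔLEO1 cells, beside 27.0% and 36.4% of all tested genes lower and 0.831% and 0.793% higher. At an unadjusted p under 0.05 the number higher was 0 in wild-type and 1 in ΔLEO1 cells, with 0 and 1 by the likelihood ratio test and by DESeq2. On the TMM scale 2 and 2 were higher, beside 15.5% of all tested genes in each, and 4 and 2 lower, beside 16.1% and 12.1%. CA9, a carbonic anhydrase, fell in wild-type (-2.88 ± 0.55, adjusted p = 3.25e-05) and ΔLEO1 cells (-3.02 ± 0.67, adjusted p = 0.000306), and BNIP3, a mitochondrial protein of hypoxic cells, fell in both (-2.84 ± 0.47, adjusted p = 1.39e-06, and -1.91 ± 0.47, adjusted p = 0.00242). On the TMM scale CA9 and BNIP3 were called lower in wild-type cells only, and VEGFA and NDRG1 were called higher in both genotypes. CA9 had 26, 40 and 3 counts in Leo1_10 and 9, 7 and 2 in Leo1_01, and these groups overlapped in CPM. CA9 was called lower by edgeR in the ΔLEO1 cells in 10% serum (-2.97 ± 0.56, adjusted p = 1.85e-05), with -3.10 ± 0.66 (adjusted p = 8.25e-05) for 0.1% serum. CA9 was over 1 CPM in wild-type libraries alone, so these tests are not independent of the filter. WT_01 library 9 was at 0.478 CPM, so without the WT_10 libraries CA9 would not have passed. Its test for low serum in wild-type cells is therefore not independent of the filter either. ANKRD37 was higher in 10% serum (2.23 ± 0.52, adjusted p = 0.000927). It was at 6.93, 6.64 and 24.3 CPM in Leo1_10, with library 6 far above libraries 4 and 5, against 2.71 to 3.51 CPM in WT_10.

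Of 9 tested glucocorticoid targets, 6 fell in low serum in wild-type and 4 in ΔLEO1 cells, beside 27.0% and 36.4% of all tested genes. DUSP1, a phosphatase of MAP kinases, fell in wild-type (-1.86 ± 0.47, adjusted p = 0.00226) and ΔLEO1 cells (-2.18 ± 0.47, adjusted p = 0.000446), as did KLF9 (-1.77 ± 0.48, adjusted p = 0.00437, and -1.44 ± 0.48, adjusted p = 0.0225). KLF9 was called lower on the TMM scale in wild-type cells only. With TMM scaling 2 and 1 of the list were lower, beside 16.1% and 12.1%, and 0 and 2 were higher, beside 15.5% in each. The 2 higher in ΔLEO1 cells were SGK1 and NR3C1. On that scale the list median was -0.31 beside 0.0045 for all genes in wild-type cells, and 0.36 beside 0.012 in ΔLEO1 cells. Without the highest-numbered libraries 6 and 7 were lower, beside 63.4% and 92.0%.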
